A study of Mus musculus with 24 samples.

Results

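The genes described here are the subunits and assembly factors of the oxidative phosphorylation system in mouse bone marrow-derived macrophages, primary macrophages grown in culture from marrow precursors. Members were the protein-coding genes whose symbols begin with mt-Nd, mt-Co, mt-Cytb, mt-Atp, Nduf, Uqcr, Atp5 or Cox followed by a digit, together with Sdha, Sdhb, Sdhc and Sdhd, that had a mean of at least 10 reads over the 24 libraries. Of 52636 gene models, 115 carried such a symbol and 104 passed the minimum, so apart from the symbols they were chosen on the mean read count alone. Of the 104 members, 10 are encoded by mitochondrial DNA and 94 by nuclear genes, and the nuclear genes comprise 76 subunits and 18 assembly factors. By symbol, 50 members belong to complex I, 4 to complex II, 9 to complex III, 25 to complex IV and 16 to complex V. The members closest above the minimum were Ndufs5 with a mean of 32.0 reads, Ndufb4 with 33.0, mt-Atp6 with 36.7 and mt-Co3 with 38.8. The 11 genes below it were Cox6b2 (mean 4.75 reads), Atp5l (3.96), mt-Nd3 (2.46), mt-Nd4l (2.38), Cox4i2 (2.38), Ndufa4l2 (1.79), mt-Atp8 (1.71), Atp5g2 (0.375), Cox8c (0.0417) and, without any read, Cox7b2 and Cox8b.

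Oxidative phosphorylation takes place in the inner mitochondrial membrane, where complexes I and II feed electrons from NADH and succinate to ubiquinone, complexes III and IV pass them on to oxygen, and complex V, the ATP synthase, uses the proton gradient to make ATP. Complexes I, III, IV and V are mosaics of subunits made from mitochondrial DNA inside the organelle and of subunits made from nuclear genes and imported, so their assembly needs both genomes, whereas complex II is wholly nuclear. Macrophages activated through Toll-like receptors are known for a shift of energy metabolism towards glycolysis with a changed use of the respiratory chain.

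The donors of the marrow were C57BL/6 wild types (WT) and Ninj1 KO mice. Ninj1 encodes the membrane protein ninjurin-1, known for its part in the rupture of the plasma membrane of dying cells. Cultures of each genotype had media only or received Pam3, the usual short form of the synthetic lipopeptide Pam3CSK4, a ligand of the receptor pair TLR1 and TLR2. The 4 groups of 6 libraries are called WT_media, KO_media, WT_Pam3 and KO_Pam3. The labels give no dose, duration, age, KO allele or KO background, and do not say whether each library is of another animal, so the p-values reflect only the spread between these libraries, part of which may be technical. RNA of whole cultures was measured, so that fewer cells of a type and less RNA per cell cannot be told apart.

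Total counts ranged from 31302011 to 40663152 reads per library. Ninj1 itself had 289 to 325 CPM (counts scaled to a fixed library total, with TMM scaling between libraries) in WT_media and 151 to 179 in KO_media, a log2 difference of −0.88 ± 0.09 (SE), and the groups did not overlap. After Pam3 it had 646 to 1145 CPM in WT_Pam3, the highest in replicate 5, and 409 to 479 in KO_Pam3, also without overlap. Reads thus remained in KO, and reads outside a deleted part check nothing. All 12 WT libraries are labelled male and the KO labels give no sex, but every library, WT included, had 6443 to 32151 reads of Xist and no more than 3 reads of Ddx3y, 1 of Uty and 0 of Eif2s3y and of Kdm5d, which goes against the label. All 9 macrophage markers were detected, with summed levels of 26158 to 38008 CPM over all libraries. Granulocyte markers were low but summed to 82.4 to 95.0 CPM in KO_media against 60.6 to 71.4 in WT_media. Of 8 tested, 4 were higher in KO_media (Ly6g was not tested). Stromal markers summed to 48.2 to 89.4 against 35.6 to 45.3 CPM, with 5 of 6 higher. Over all tested genes, 1.92% were called higher in KO_media. After Pam3 the granulocyte sum was 48.7 to 57.0 CPM in KO_Pam3, against 39.2 to 43.5 in 5 WT_Pam3 libraries and 62.3 in replicate 5, with 2 of 8 markers higher in KO and 3 without replicate 5. Only replicate 5 was above the KO range, and the other 5 were all below it. The stromal sum was 37.7 to 61.9 against 26.2 to 39.7 CPM, with 2 of 6 higher with or without that library. Over all tested genes, 1.31% were called higher in KO_Pam3, and 2.42% without replicate 5. Erythroid markers had 54 reads over all 24 libraries, so that 0 of 5 were tested.

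1 library stood apart in these genes. In WT_Pam3 replicate 5, 87 of the 94 nuclear members were above all the other 5 libraries of the group and 2 were below, with a median of 1.63 times the mean of the others. The mitochondrial members went the other way: 8 of 10 were below all the other 5 and 1 was above, with a median of 0.801. The share of all genes lying outside the other 5 was not counted. Of 8646 genes above 5 CPM, 4343 were above the mean of the others, beside 90 of the 94 nuclear and 1 of the 10 mitochondrial members. Atp5e, the epsilon subunit of the ATP synthase, was 2.34 times the mean of the others, whereas mt-Nd5, a membrane subunit of complex I, was 0.478 times. The library did not stand apart in its total, 33377465 reads. Over all genes above 5 CPM, its median ratio to the others fell with exon length, from 1.43 in 317 genes of at most 1000 bases to 1.38, 1.15 and, in 5054 genes above 4000 bases, 0.862. The nuclear members were above these values in each length class, with medians of 1.69, 1.75, 1.49 and 1.39. Its megakaryocyte markers summed to 196 CPM against 109 to 121, and its macrophage markers to 38008 against 33442 to 34752. What these values have to do with the members' levels was not tested, and values without this library are given beside many of the results that use it.

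**Figure D1:**
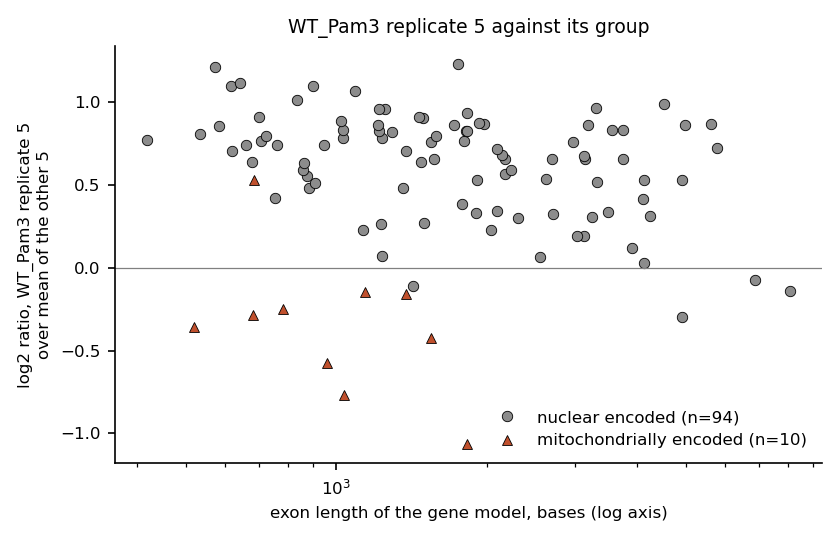
Ratio of WT_Pam3 replicate 5 to the mean of the other 5 WT_Pam3 libraries (vertical, log2) against exon length in bases (horizontal, log). Points are the 94 nuclear and 10 mitochondrial members, and the grey line marks equal levels. Most nuclear members lie above that line and most mitochondrial members lie below it.

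The mitochondrial members differ in how far their sequences are unique. Counts are of reads that align uniquely, and the nuclear genome carries long copies of mitochondrial DNA, among them gene models on chromosome 1 (GRCm38, GENCODE M21): Gm28661 at chr1:24614885-24615565, Gm28437 at chr1:24613189-24613971, Gm10925 at chr1:24613974-24614651, Gm28438 at chr1:24612775-24613119 and Gm28439 at chr1:24611535-24612410. Gm28661 matched the first 681 bases of mt-Co2 with 0 substitutions, Gm28437 the first 783 of mt-Co3 with 0, Gm10925 the first 678 of mt-Atp6 with 0, and Gm28439 the first 876 of the 1378 bases of mt-Nd4 with 0. The following stretches of 50 bases, the read length, show a part of mt-Cytb that occurs in no other annotated transcript and a part of mt-Co2 that reads the same in Gm28661. The next 30-base stretches are the starts of mt-Nd3 and of its copy, whose only difference over 345 aligned bases, T3C counted from 1 at the transcript's 5′ end, is in capitals.
mt-Cytb, bases 548 to 597: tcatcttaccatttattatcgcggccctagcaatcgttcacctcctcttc
mt-Co2 and Gm28661, bases 316 to 365: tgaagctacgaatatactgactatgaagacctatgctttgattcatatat
mt-Nd3: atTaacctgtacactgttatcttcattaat
Gm28438: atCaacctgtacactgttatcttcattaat

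The share of a gene's 50-base stretches that occur in another annotated gene was 0% for mt-Cytb, mt-Nd1 and mt-Nd6, 7.61% for mt-Nd5, 8.19% for mt-Nd2, 51.1% for mt-Co1, 62.2% for mt-Nd4, 99.5% for mt-Atp6, 99.9% for mt-Co3 and 100% for mt-Co2. The 3 members with nearly all stretches shared had few counted reads. Per library, mt-Cytb, the cytochrome b of complex III, had a mean of 52163 reads, mt-Nd1 38145, mt-Co1 35502, mt-Nd5 23619, mt-Nd2 16921 and mt-Nd4 16218, whereas mt-Co2, mt-Co3 and mt-Atp6 had 45.3, 38.8 and 36.7. Levels and changes of the last 3 are uncertain for that reason, and of the genes under the minimum mt-Nd3 shared 98.0% and mt-Nd4l 98.8% of its stretches. mt-Nd6 had 379 reads; it lies on the strand opposite to the others, and the kit does not mark strand. Among the nuclear members, 48 of 94 shared no stretch and 10 shared over 10%, led by Uqcrb with 25.4%, Cox7c with 22.1% and Ndufs5 with 21.7%, so their levels are uncertain.

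Per length, in the deposited RPKM (reads per kilobase, relative to the library total), mt-Cytb, mt-Nd1, mt-Co1 and mt-Nd2 had the highest levels of all members in WT_media. In WT_media mt-Cytb had 1112 to 1258 RPKM with a median of 1160.4, mt-Nd1 953 to 1094 with a median of 1005, and mt-Co1, the catalytic core of complex IV, 556 to 631 with a median of 599. These ranges do not overlap, so the order is larger than the spread between libraries. With 51.1% of its 50-base stretches shared with other genes, mt-Co1 may be under-counted, and so may mt-Nd4 with 62.2%. The place of these 2 genes in the order is therefore uncertain. Below them, mt-Nd2 had a median of 429 RPKM, mt-Nd5 321 and mt-Nd4 307, and the ranges of the last 2, 317 to 384 and 285 to 329, overlapped. mt-Nd6 was far lower, at 16.0 to 24.5.

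Among the nuclear members, Cox4i1, which encodes the regulatory subunit 4 of complex IV, had the highest level, 318 to 340 RPKM in WT_media, within the range of mt-Nd5. The other complexes were led by Atp5b, the catalytic beta subunit of the ATP synthase, at 149 to 161 RPKM, by Ndufa2 of complex I at 82.1 to 89.0, by Uqcrh, the hinge protein of complex III, at 71.3 to 79.5, and by Sdhd, a membrane anchor of complex II, at 71.9 to 79.1. Uqcrh and Sdhd overlapped. The lowest members by their WT_media medians were, in complex I, Ndufs5 with 0.802 RPKM and Ndufb4 with 0.807, whose ranges overlapped, and in the other complexes Sdhc with 28.0, Uqcrb with 3.17, Cox7c with 1.10 and Atp5g1, a gene for the c subunit of the ATP synthase ring, with 0.246. Of these 6, Ndufs5, Ndufb4, Uqcrb, Cox7c and Atp5g1 (11.1%) are among the 10 nuclear members with over 10% of their stretches shared elsewhere. Most genes of isoforms known from other tissues were hardly read: Cox4i2, Cox6b2, Cox7b2, Cox8b, Cox8c and Ndufa4l2 all fell under the minimum.

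Together the mitochondrial members took 0.599% to 0.648% of the counted reads in WT_media (median 0.631%) and 0.508% to 0.604% in KO_media (median 0.550%). After Pam3 they took 0.441% to 0.478% in WT_Pam3 without replicate 5, where the share was 0.336%, and 0.389% to 0.428% in KO_Pam3 (median 0.418%). The nuclear members took 0.481% to 0.498% in WT_media, 0.494% to 0.526% in KO_media, 0.415% to 0.423% in WT_Pam3 with 0.622% in replicate 5, and 0.421% to 0.457% in KO_Pam3. Neither share overlapped between media and Pam3 within a genotype, apart from replicate 5 for the nuclear one. Shares are of the whole library and fall when other genes take more reads, which is why the changes below are relative to TMM scaling. That scaling left the median of all tested genes at −0.05 (WT) and −0.07 (KO) for Pam3 against media, on the log2 scale, whereas scaling by library size alone moved these medians to −0.58 and −0.56. The ratio of mitochondrial to nuclear reads, which no scaling touches, was 1.21 to 1.33 in WT_media, 1.0 to 1.21 in KO_media, 1.06 to 1.13 in 5 WT_Pam3 libraries with 0.540 in replicate 5, and 0.885 to 1.0 in KO_Pam3. It was thus lower in KO than in WT in both conditions, with some overlap in media and, for Pam3, none once replicate 5 was set aside.

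**Figure D2:**
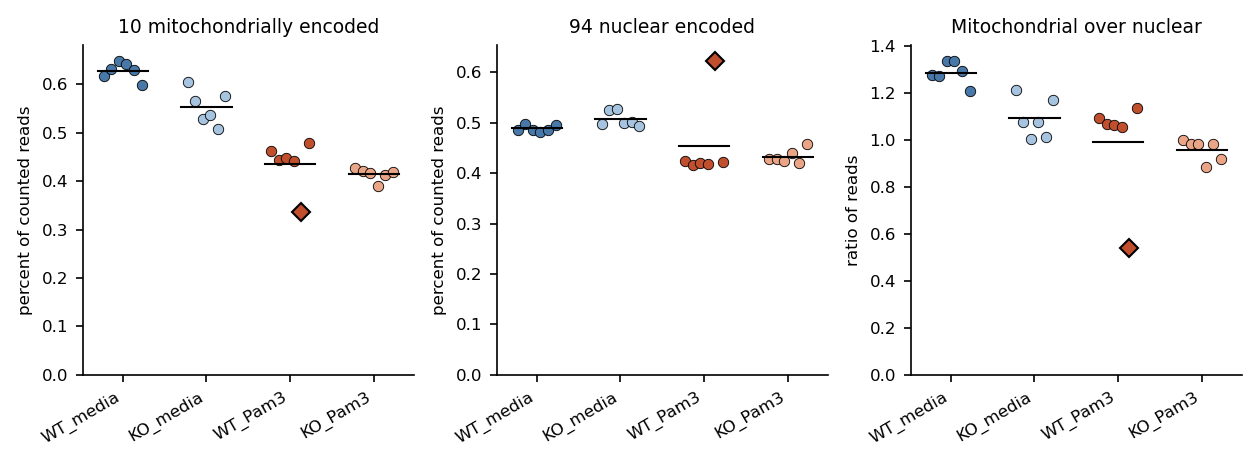
Share of counted reads (percent) taken by the mitochondrial and by the nuclear members, and their ratio, in each of the 24 libraries by group; points are libraries, lines are means and the diamond is WT_Pam3 replicate 5. The ratio is 1.21 to 1.33 in WT_media and 1.0 to 1.21 in KO_media, and replicate 5 lies at 0.540.

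Between KO and WT in media, the mitochondrial transcripts were slightly lower in KO and no nuclear member passed the test. mt-Cytb was 1413 to 1631 CPM in WT_media with a median of 1487, and 1194 to 1444 in KO_media with a median of 1331. The KO median lay below the lowest WT library, and the groups overlapped in part. The log2 difference was −0.20 ± 0.05 (SE), with an adjusted p of 0.0131 (edgeR quasi-likelihood test, Benjamini-Hochberg over 14435 genes). mt-Nd4, a proton-pumping membrane subunit of complex I, was 436 to 514 CPM in WT_media and 383 to 476 in KO_media, a difference of −0.17 ± 0.05 with an adjusted p of 0.0456 by the same test. These were the only members that passed, so 0 of 104 were higher and 2 lower, against 1.92% and 1.12% of all tested genes called higher and lower. At an unadjusted p under 0.05 the counts were 1 higher and 7 lower, against 6.91% and 6.05% of all tested genes, so the 7 of 104 are near the background. Leaving out 1 library at a time kept the call of mt-Cytb in all 24 cases (adjusted p from 0.00096 to 0.0431) and ended that of mt-Nd4 in 18 (up to 0.121).

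All 10 mitochondrial members had a negative difference in media, with a median of −0.19 and a range from −0.26 to −0.04, beside a median of −0.00 over all tested genes, while 75 of the 94 nuclear members had a positive one with a median of 0.05. mt-Nd5 was 647 to 781 CPM in WT_media and 523 to 661 in KO_media (−0.25 ± 0.11), mt-Nd2 was 480.1 to 563 and 378 to 484 (−0.24 ± 0.09), and mt-Nd1 was 1029 to 1170 and 838 to 1037 (−0.22 ± 0.07). None of these 3 passed, and each pair of groups overlapped only at its edge. The spread is shared over the 4 groups, so leaving out WT_Pam3 replicate 5 changes these tests although that library is in neither group. Without it mt-Nd1, mt-Nd2 and mt-Nd5 also passed, with adjusted p of 0.00110, 0.000757 and 0.00116 in edgeR, beside 0.00096 for mt-Cytb and 0.00644 for mt-Nd4, so 5 members were lower (4.23% of all genes). mt-Co1 stayed at −0.11 ± 0.04 and an adjusted p of 0.0750. mt-Nd6 had a difference of −0.26 ± 0.12 with an adjusted p of 0.364 in the fit of all libraries.

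Sdhb, the iron-sulphur subunit of complex II, was the only nuclear member whose groups did not overlap in media. It was 74.3 to 77.8 CPM in WT_media with a median of 74.9 and 78.5 to 85.5 in KO_media with a median of 81.4, so every KO library was above every WT library; 2.16% and 2.11% of all tested genes were higher and lower without overlap. Its difference, 0.12 ± 0.07, had an adjusted p of 0.550 with all libraries and of 0.00357 without WT_Pam3 replicate 5, when it was the only member higher (4.52% of all genes). Sdha, the flavoprotein of complex II, was 182 to 199 CPM and 197 to 205, a difference of 0.07 ± 0.03 with an adjusted p of 0.285. The ratio of mt-Cytb to Sdha reads within a library, free of any scaling, was 7.17 to 8.94 in WT_media and 6.05 to 7.03 in KO_media, without overlap. It was 7.57 to 8.12 in 5 WT_Pam3 libraries and 6.60 to 7.24 in KO_Pam3, with replicate 5, at 6.99, inside the KO range. This ratio sets a member that passed as lower in KO against a gene with a positive difference in media. Other pairs of genes were not compared, so it adds no separate evidence. The granulocyte and stromal marker sums given above were higher in the same KO_media libraries, and their part in these differences was not tested.

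After Pam3, mt-Cytb and mt-Nd4 were again the members lower in KO. mt-Cytb was 1415 to 1611 CPM in WT_Pam3 with a median of 1550.3, the lowest being replicate 5, and 1289 to 1436 in KO_Pam3 with a median of 1383. Only replicate 5 reached into the KO range. The log2 difference was −0.17 ± 0.05 with an adjusted p of 0.0338 in edgeR. mt-Nd4 was 425 to 492 CPM in WT_Pam3 and 382 to 423 in KO_Pam3, without overlap (0.894% and 1.63% of all tested genes were higher and lower without overlap), a difference of −0.18 ± 0.05 and an adjusted p of 0.0358. No member was higher and 2 were lower, against 1.31% and 2.75% of all genes; at an unadjusted p under 0.05 the counts were 0 and 12, against 6.01% and 10.3% of all genes, again near the background for those lower. Both calls lie near the threshold: they were lost when library size alone was used for scaling, when no low-count filter was applied and when the fit held these 2 groups alone. Leaving out 1 library at a time ended the call of mt-Cytb in 21 of 24 cases and that of mt-Nd4 in 19, with adjusted p of up to 0.100 and 0.107.

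Without WT_Pam3 replicate 5 the differences of the mitochondrial members grew and those of the nuclear members went to 0. mt-Nd1 was 1155 to 1218 CPM in the other 5 WT_Pam3 libraries and 987 to 1095 in KO_Pam3, mt-Nd2 was 488 to 525 and 408 to 452, and mt-Nd5 was 719 to 796 and 607 to 677. In each of these the KO libraries were all below the WT libraries. Their differences were −0.19, −0.21 and −0.21 with adjusted p of 0.00603, 0.00439 and 0.00550 in edgeR, beside −0.19 and 0.00205 for mt-Cytb and −0.20 and 0.00250 for mt-Nd4. Thus 5 members were lower, all mitochondrial (2.42% and 5.67% of all genes were called higher and lower), and 6 did not overlap, the sixth being mt-Co1 with −0.12 ± 0.04 and an adjusted p of 0.0615; 1.56% and 4.39% of all genes were higher and lower without overlap. The median over the 94 nuclear members was −0.14 with the library and 0.00 without it. The comparisons in media and after Pam3 share no library, and the 5 mitochondrial genes passed in both when that library was left out. Both come from the same fit with a shared spread. The labels do not say whether media and Pam3 cultures came from the same animals, so the comparisons cannot be taken as independent repeats.

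**Figure D3:**
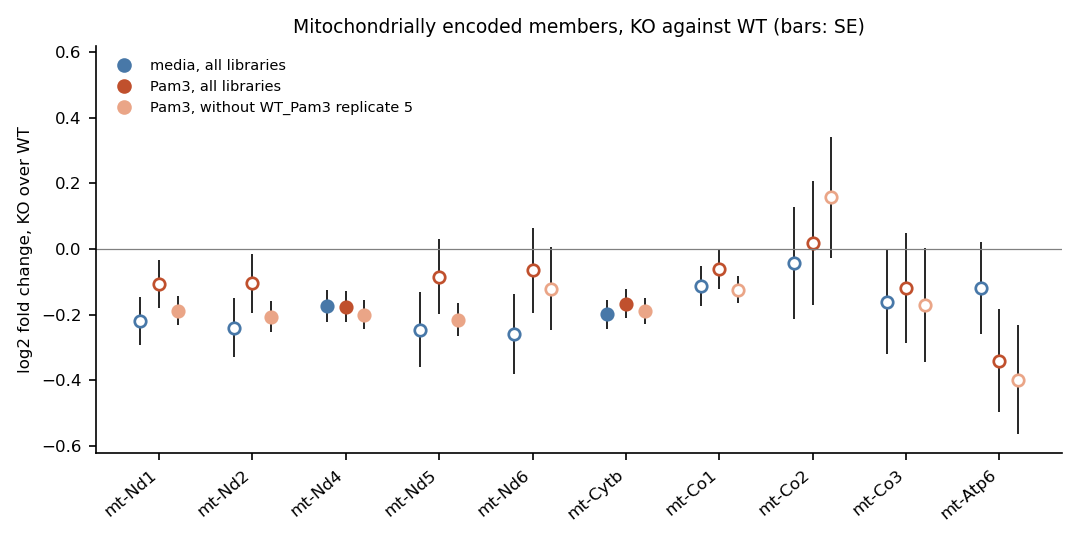
Log2 difference between KO and WT, with standard errors, for the mitochondrial members in media and after Pam3, with and without WT_Pam3 replicate 5. The differences of mt-Cytb, mt-Nd1, mt-Nd2, mt-Nd4 and mt-Nd5 lie between −0.25 and −0.17 in media, and without replicate 5 between −0.21 and −0.19 after Pam3.

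The response to Pam3 differed from complex to complex. In WT, 52 of 104 members were higher and 11 lower after Pam3, and in KO 34 were higher and 21 lower; the background was 40.6% of all tested genes higher and 44.2% lower in WT, and 40.2% and 44.8% in KO. Without replicate 5 the WT counts became 47 and 22 (41.1% and 45.7% of all genes), and the KO counts, through the shared spread, 45 and 25 (41.5% and 46.2%). With all libraries 32 members were higher in both genotypes, 11 were lower in both and 0 had opposite calls. Scaling by library size alone gave 11 higher and 57 lower in WT and 10 higher and 74 lower in KO (24.8% and 62.7% of all genes in WT, 25.5% and 61.9% in KO), so for members with small changes the direction is relative to the scaling. Calls were compared under TMM, RLE, library size and TMM without replicate 5. In all of these, 9 members were higher in both genotypes (Cox18, Atp5b, Cox5a, Cox17, Atp5o, Atp5g3, Cox10, Ndufs4 and Cox7a2). Likewise, 9 were lower in both genotypes (Ndufaf7, Atp5s, Ndufb11, Cox7a2l, Ndufa6, Ndufb5, Ndufs3, Ndufb3 and Atp5c1).

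**Figure D4:**
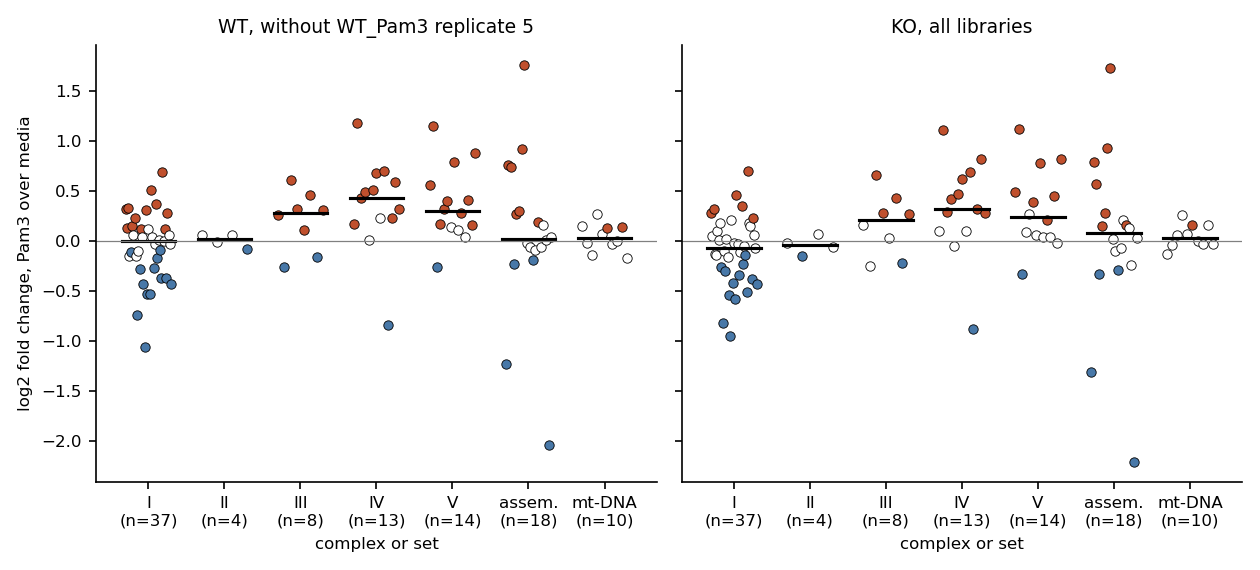
Log2 change after Pam3 of every member, set by set (nuclear subunits of complexes I to V, assembly factors, mitochondrial members), in WT without replicate 5 (left) and in KO (right); red points passed the test as higher, blue as lower, white did not pass, and bars are medians. Complex I spreads to both sides of 0, and complexes IV and V lie mostly above it.

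Complex I, which oxidises NADH, moved both ways, as did all tested genes. Of its 37 nuclear subunits, 14 were higher and 6 lower in WT (12 and 13 without replicate 5) and 6 were higher and 13 lower in KO, with medians of 0.11 in WT, 0.00 in WT without replicate 5 and −0.07 in KO. Over all tested genes, 40.6% were higher and 44.2% lower in WT (41.1% and 45.7% without replicate 5). In KO these shares were 40.2% and 44.8%. The subunit with the largest rise was Ndufs4, an accessory subunit needed for a stable complex, with 17.8 to 20.7 CPM in WT_media, 27.8 to 50.5 in WT_Pam3, 18.5 to 21.7 in KO_media and 30.5 to 33.7 in KO_Pam3. No Pam3 library overlapped with media, and the changes were 0.81 ± 0.09 in WT (0.68 without replicate 5) and 0.70 ± 0.09 in KO. Ndufb6, Ndufa11, Ndufc1, Ndufa1 and Ndufs8 were also higher in both genotypes, by 0.45 to 0.67 in WT (0.28 to 0.51 without replicate 5) and 0.23 to 0.46 in KO.

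Ndufb11, an accessory subunit in the membrane arm of complex I, had the largest fall among subunits. It was 7.96 to 8.97 CPM in WT_media with a median of 8.48, 3.58 to 6.01 in WT_Pam3 with a median of 4.18 and the highest value in replicate 5, 7.74 to 9.40 in KO_media, and 3.99 to 4.73 in KO_Pam3. Every Pam3 library was below every media library. The change was −0.96 ± 0.09 in WT (−1.06 without replicate 5) and −0.95 ± 0.09 in KO, with adjusted p of 6.29e-11 and 6.28e-11 in edgeR. Ndufa6, which binds the matrix arm, changed by −0.58 in WT (−0.74 without replicate 5) and −0.82 in KO, and its level was 40.6 to 43.9 CPM in WT_media and 22.0 to 28.0 in 5 WT_Pam3 libraries, with 43.3 in replicate 5. Ndufb5, Ndufb3, Ndufs3 and Ndufv3 were lower in both genotypes too, by −0.34, −0.35, −0.24 and −0.24 in WT and −0.58, −0.42, −0.51 and −0.43 in KO, and in WT each of these 4 fell further without replicate 5, to between −0.53 and −0.37. Ndufb10 did not pass in WT with all libraries (−0.22 ± 0.12, adjusted p 0.0803 in edgeR) and passed without replicate 5 (−0.43) and in KO (−0.53). Ndufv1, Ndufv2 and Ndufs1, part of the FMN- and iron-sulphur-bearing core, changed by −0.02 to 0.16 in WT and by −0.07 to 0.05 in KO. Of these only Ndufv1 passed, in WT (0.16), and it did not pass without replicate 5 (0.06). They do not stand for the whole core, since Ndufs8, another iron-sulphur subunit, was higher in both genotypes, as given above.

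Complex II, which links the citric acid cycle to ubiquinone, had small changes. Sdha was 182 to 199 CPM in WT_media, 194 to 203 in WT_Pam3, 197 to 205 in KO_media and 191 to 205 in KO_Pam3, and the 4 ranges overlapped. Its changes were 0.06 ± 0.03 in WT and −0.02 ± 0.03 in KO, with adjusted p of 0.0719 and 0.626. Sdhc changed by 0.11 ± 0.05 in WT (adjusted p 0.0258, lost in 6 of 24 omissions of a library, up to 0.0822) and 0.07 in KO, and Sdhd by −0.03 and −0.06, neither of which passed. Without replicate 5 Sdhd passed as lower in WT (−0.08) and KO (−0.06), and Sdhc as higher in KO (0.08) and not in WT (0.06). Sdhb was 73.0 to 76.9 CPM in 5 WT_Pam3 libraries with 113 in replicate 5, and 71.4 to 76.3 in KO_Pam3, below every KO_media library, so that it changed by −0.15 ± 0.07 in KO (adjusted p 0.0452, lost in 18 of 24 omissions of a library, up to 0.101) and by 0.10 ± 0.07 in WT (adjusted p 0.178, all in edgeR).

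Of the 8 nuclear subunits of complex III, which carries electrons from ubiquinol to cytochrome c, 6 were higher in WT and 0 lower (6 and 2 without replicate 5), and 4 were higher and 1 lower in KO. The shares over all tested genes were 40.6% and 44.2% in WT (41.1% and 45.7% without replicate 5) and 40.2% and 44.8% in KO. Uqcrfs1, the Rieske iron-sulphur protein, changed by 0.55 ± 0.06 in WT (0.46 without replicate 5) and 0.43 ± 0.06 in KO, and the core protein gene Uqcrc1 by 0.42 ± 0.07 (0.32) and 0.28 ± 0.07. The median was 0.43 in WT (0.28 without replicate 5) and 0.21 in KO. Uqcrh changed by 0.00 in WT, by −0.16 without replicate 5 and by −0.22 in KO, passing as lower in the last 2. mt-Cytb, the mitochondrial subunit of the same complex, did not pass in either genotype (0.04 ± 0.05 and 0.07 ± 0.05).

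Complex IV, the cytochrome c oxidase, had the highest medians of the nuclear sets. Of 13 nuclear subunits, 11 were higher and 1 lower in WT (10 and 1 without replicate 5) and 9 were higher and 1 lower in KO, with medians of 0.60 (0.43 without replicate 5) and 0.32. The shares over all tested genes were 40.6% and 44.2% in WT (41.1% and 45.7% without replicate 5) and 40.2% and 44.8% in KO. Cox5a, which encodes a subunit at the matrix side of the complex, was 44.7 to 47.2 CPM in WT_media, 101 to 105 in 5 WT_Pam3 libraries and 171 in replicate 5, 44.5 to 50.9 in KO_media, and 90.3 to 107 in KO_Pam3. The media and Pam3 libraries were far apart and the genotypes overlapped. The rise was 2.50-fold in WT (2.26-fold without replicate 5; log2 1.32 ± 0.09, adjusted p 1.89e-13) and 2.16-fold in KO (log2 1.11 ± 0.09, adjusted p 7.41e-12, edgeR). Cox6c and Cox7a2 followed with 0.86 and 0.85 in WT (0.68 and 0.70 without replicate 5) and 0.61 and 0.69 in KO. Cox7c changed by 0.63 ± 0.14 (0.59 without replicate 5) and 0.82 ± 0.14, on a gene with 22.1% of its stretches shared elsewhere.

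The member of the complex IV group that fell was Cox7a2l, which is known as an assembly factor that joins complexes III and IV in supercomplexes. It was 84.7 to 92.2 CPM in WT_media, 47.5 to 52.1 in 5 WT_Pam3 libraries and 77.2 in replicate 5, 87.1 to 96.5 in KO_media, and 47.5 to 54.0 in KO_Pam3. It fell in WT by 0.71 on the log2 scale (0.84 without replicate 5) and in KO by 0.87, with adjusted p of 3.56e-09 and 6.61e-11 in edgeR. Its relative Cox7a2, which encodes a subunit proper, rose, as stated above. Among the other isoform genes, Cox6a1, Cox6b1, Cox7b and Cox8a, the forms used widely across tissues, were higher in both genotypes with changes of 0.68, 0.67, 0.42 and 0.46 in WT (0.49, 0.51, 0.23 and 0.31 without replicate 5) and 0.42, 0.47, 0.32 and 0.28 in KO, and under scaling by library size alone all 4 had negative values in KO and 2 of them, Cox7b and Cox8a, in WT. Cox4i1 changed by 0.32 ± 0.09 in WT (0.17 without replicate 5) and 0.10 ± 0.09 in KO. The heart and muscle forms Cox6a2 and Cox7a1 were low, with group medians of at most 1.69 CPM; Cox6a2 did not pass, and Cox7a1 passed in WT with 0.44 and not without replicate 5 (0.22, adjusted p 0.137 in edgeR).

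Ndufa4, placed in complex I by its symbol, is now regarded as a subunit of complex IV. It was 37.3 to 41.0 CPM in WT_media, 43.3 to 74.9 in WT_Pam3, 38.6 to 42.5 in KO_media and 43.1 to 49.8 in KO_Pam3, and changed by 0.38 ± 0.09 in WT (0.23 without replicate 5) and 0.18 ± 0.09 in KO (adjusted p 0.0618 in edgeR). Its paralogue AA467197, which the choice of symbols leaves out, was 1.21 to 1.63 CPM in WT_media, 31.4 to 45.3 in WT_Pam3, 1.09 to 1.75 in KO_media and 33.0 to 42.9 in KO_Pam3. AA467197 rose 25.1-fold in WT and 24.8-fold in KO (log2 4.65 ± 0.11 and 4.63 ± 0.11, adjusted p 4.13e-24 and 3.34e-24), and the ratio of its reads to those of Ndufa4 went from 0.0294 to 0.0427 in WT_media to 0.605 to 0.806 in WT_Pam3, and from 0.0266 to 0.0425 to 0.740 to 0.945 in KO. Reads are not corrected for length in this ratio. Between the genotypes after Pam3 it differed by 0.13 ± 0.08 (adjusted p 0.443) and, without replicate 5, by 0.21 ± 0.06 (adjusted p 0.0120, edgeR).

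**Figure D5:**
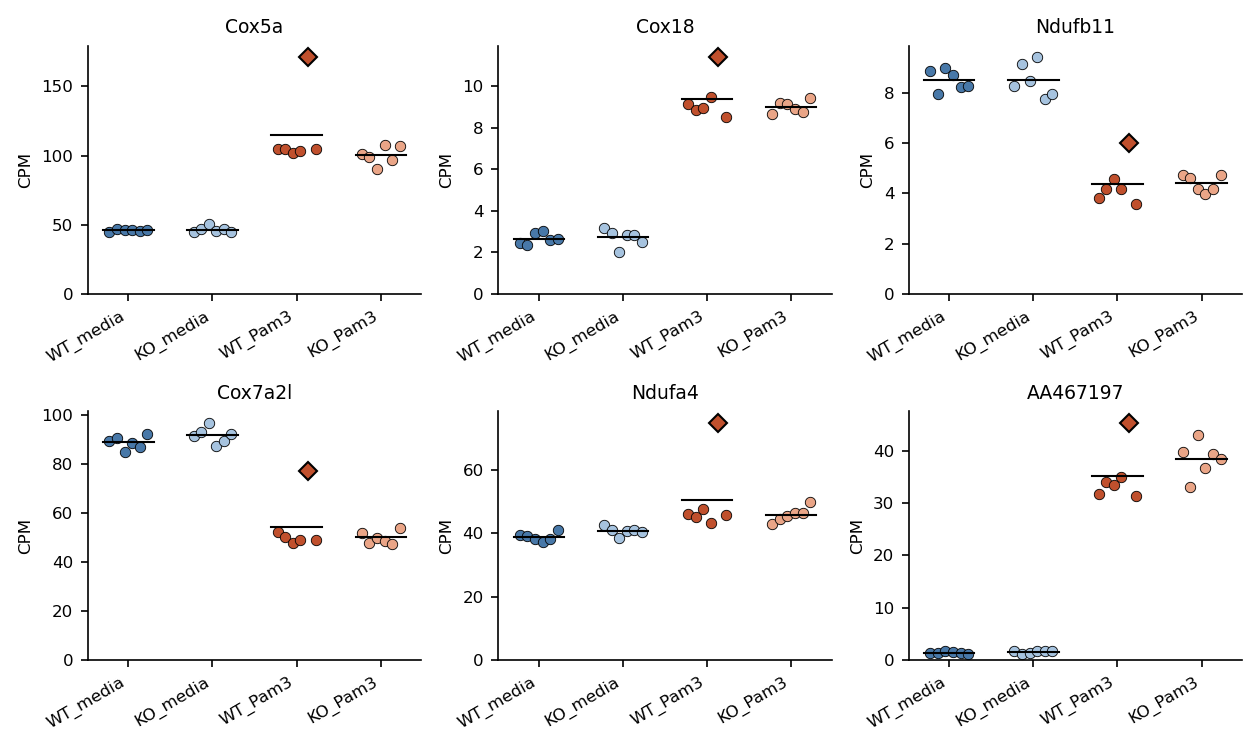
CPM in every library by group for Cox5a, Cox18, Ndufb11, Cox7a2l, Ndufa4 and its paralogue AA467197; lines are group means and the diamond is WT_Pam3 replicate 5. Cox5a, Cox18 and AA467197 are above and Ndufb11 is below its media range in all Pam3 libraries of both genotypes, and Cox7a2l is below it as well, with replicate 5 at 77.2.

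Of the 14 nuclear subunits of complex V, 12 were higher and 1 lower in WT (10 and 1 without replicate 5) and 7 were higher and 1 lower in KO, with medians of 0.44, 0.30 and 0.24. The shares over all tested genes were 40.6% and 44.2% in WT (41.1% and 45.7% without replicate 5) and 40.2% and 44.8% in KO. Atp5b was 321 to 342 CPM in WT_media, 714 to 750.4 in 5 WT_Pam3 libraries with 908.0 in replicate 5, 320 to 349 in KO_media and 708 to 748 in KO_Pam3. The rise of 2.30-fold in WT and 2.17-fold in KO (log2 1.20 ± 0.05 and 1.12 ± 0.05, adjusted p 2.71e-19 and 1.30e-18 in edgeR) was among the largest of any subunit. Atp5o, the stalk protein that confers oligomycin sensitivity, changed by 1.06 in WT (0.88 without replicate 5) and 0.82 in KO, and Atp5g3, a gene for the c ring, by 0.90 (0.79) and 0.78. Atp5a1, the alpha subunit that alternates with beta in the catalytic head, changed by 0.59 ± 0.04 (0.55 without replicate 5) and 0.48 ± 0.04. Atp5c1, the gamma subunit that turns inside that head, went the other way, with −0.20 ± 0.05 in WT (−0.26 without replicate 5) and −0.33 ± 0.05 in KO. Of the 3 c-ring genes, Atp5g2 fell under the minimum and Atp5g1 did not pass in WT (0.27) or KO (0.06).

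Within a library the reads of the nuclear subunits of complex V were 1.15 to 1.19 times those of complex I in WT_media and 1.14 to 1.18 times in KO_media. After Pam3 this ratio was 1.89 to 1.95 in 5 WT_Pam3 libraries, 1.59 in replicate 5 and 1.83 to 1.93 in KO_Pam3. The ratio of complex IV to complex I went from 0.640 to 0.661 and 0.636 to 0.653 in media to 0.821 to 0.847, with 0.863 in replicate 5, and 0.819 to 0.830. All 12 Pam3 libraries were above all 12 media libraries in both ratios, which do not depend on the scaling between libraries.

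The 18 assembly factors held the extremes of the whole set. Cox18, which inserts the mitochondrial-encoded subunit COX2 into the membrane, was 2.38 to 3.03 CPM in WT_media, 8.50 to 11.4 in WT_Pam3, 2.04 to 3.20 in KO_media and 8.65 to 9.45 in KO_Pam3. Every Pam3 library was above every media library, by 3.51-fold in WT (3.37-fold without replicate 5) and 3.31-fold in KO. Cox17, the copper chaperone of complex IV, changed by 1.06 ± 0.11 in WT (0.91 without replicate 5) and 0.93 ± 0.11 in KO, and Cox10, which makes heme O for heme A synthesis, by 0.79 (0.76) and 0.78. Of the 9 assembly factors of complex IV, 6 were higher in each genotype, and 0 were lower in WT (1 without replicate 5) and 1, Cox14, in KO. Over all tested genes, 40.6% were higher and 44.2% lower in WT, and 40.2% and 44.8% in KO.

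Ndufaf7, an assembly factor of complex I, had the largest fall of all members. It was 8.30 to 9.66 CPM in WT_media, 1.82 to 2.93 in WT_Pam3, 8.53 to 9.96 in KO_media and 1.61 to 2.37 in KO_Pam3, without overlap between media and Pam3. The fall was 3.91-fold in WT (4.10-fold without replicate 5) and 4.61-fold in KO, with adjusted p of 5.14e-17 and 5.15e-18 in edgeR. The ATP synthase coupling factor gene Atp5s changed by −1.17 ± 0.12 (−1.22 without replicate 5) and −1.31 ± 0.12. Of the 8 assembly factors of complex I, 2 were higher and 2 lower in WT (1 and 2 without replicate 5) and 1 was higher and 2 lower in KO. Over all tested genes, 40.6% were higher and 44.2% lower in WT, and 40.2% and 44.8% in KO.

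Few mitochondrial members passed for Pam3 against media. None of the 10 passed in WT (medians of 0.00 over the 10 and −0.01 over the 6 with over 10000 mean reads), and in KO only mt-Nd1 did, with 0.16 ± 0.07 and an adjusted p of 0.0443, a call lost in 7 of 24 omissions of a library (up to 0.0969). At medians of 0.00 in WT and 0.03 in KO they lay 0.06 and 0.11 above the median of all tested genes. Without replicate 5, mt-Nd1 and mt-Nd5 passed as higher in WT (0.13 ± 0.04 and 0.14 ± 0.05, adjusted p 0.00679 and 0.0144, edgeR). Scaling by library size alone gave mt-Cytb −0.48 in WT and −0.41 in KO and mt-Nd1 −0.47 and −0.32, the opposite sign, so their direction is relative to the scaling.

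No member had a Pam3 response that differed between the genotypes in the interaction test. 0 of 104 passed in either direction, where 0.173% and 0.589% of all genes did, and at an unadjusted p under 0.05 the counts were 0 and 3, against 4.16% and 8.09%. The median interaction was −0.18 over the members with all libraries and −0.04 without replicate 5. Sdhb was then the only member to pass (−0.14 ± 0.04, adjusted p 0.0310 in edgeR, with 0.70% of all genes higher and 3.03% lower); with replicate 5 its value was −0.26 ± 0.10 and its adjusted p 0.267.

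Genes that serve the same system but lie outside the choice of symbols also moved both ways after Pam3, as did all tested genes. Of all tested genes, 40.6% were higher and 44.2% lower in WT (41.1% and 45.7% without replicate 5). In KO the shares were 40.2% and 44.8% (41.5% and 46.2%). Of 33 tested assembly factors with other names, 11 were higher and 17 lower in WT (10 and 17 without replicate 5) and 7 and 17 in KO (10 and 18), with medians of −0.17 and −0.15. Tmem126b, a complex I assembly factor, went from 30.4 to 32.7 CPM in WT_media to 5.77 to 8.68 in WT_Pam3 (log2 −2.15 ± 0.06) and by −2.25 ± 0.06 in KO, next to the fall of Ndufaf7, while the complex IV factor Coa5 and the complex V factor Tmem70 changed by 1.64 and 0.94 in WT and by 1.55 and 0.94 in KO. Of 28 tested electron carriers, exchange proteins and alternative routes, 15 were higher and 12 lower in WT (13 and 13 without replicate 5) and 13 and 12 in KO (14 and 12). Gpd2, the glycerol 3-phosphate dehydrogenase that feeds ubiquinone from outside the matrix, had 21.3 to 24.1 CPM in WT_media and 743 to 756 in 5 WT_Pam3 libraries with 475 in replicate 5, a change of 4.98 ± 0.09, and of 5.03 ± 0.09 in KO. Etfdh, which feeds it from fatty acid oxidation, changed by −1.27 and −1.30.

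Of 33 tested genes for expression of the mitochondrial genome and for biogenesis, 16 were higher and 13 lower in WT (17 and 12 without replicate 5) and 18 and 9 in KO, with or without it. The shares over all tested genes, with all libraries, were 40.6% higher and 44.2% lower in WT, and 40.2% and 44.8% in KO. The coactivator gene Pprc1 changed by 1.80 and 1.99, the nuclear receptor gene Esrra by 1.68 and 1.64, the mitochondrial RNA-degrading enzyme gene Pnpt1 by 1.85 and 1.74, and Tbrg4, which acts on mitochondrial RNA, by 1.36 and 1.39. Of 75 tested proteins of the mitochondrial ribosome, 35 were higher and 25 lower in WT (32 and 32 without replicate 5) and 27 and 33 in KO (33 and 36), with medians of 0.08 (−0.04) and −0.02 (−0.02). Between the genotypes, 1 gene of all these lists passed with all libraries: Polg, the catalytic subunit of the mitochondrial DNA polymerase, was higher in KO than in WT after Pam3 by 0.18 ± 0.04 with an adjusted p of 0.0138 (edgeR), and in media differed by −0.05 ± 0.04. Without replicate 5 it passed again after Pam3 (adjusted p 0.00410) and in the interaction (0.22 ± 0.05, adjusted p 0.0170, against 0.0668 with all libraries, edgeR). Further genes then passed between the genotypes: Oxa1l, which inserts proteins into the inner membrane (0.15), Mrpl21 (0.18) and Mrps18c (0.19) of the ribosome were higher in KO in media. Sqor, the sulfide quinone oxidoreductase (0.15), and AA467197, given above, were higher in KO after Pam3, and Coa5 was lower (−0.13).

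The promoters of the nuclear members were read for letters of factors known to act on respiratory chain genes. RefSeq windows of 300 bases on GRCm38.p6, from 250 bases before to 50 after an annotated start, were found for 78 of the 94. The palindrome of NRF1, of 10 letters, was in a window of 6 genes (7.69%, against 1.07% of 27025 genes), its core TGCGCA in 17 (21.8% against 8.79%), the ETS core CCGGAAG in 22 (28.2% against 9.93%) and the YY1 core AAGATGGC in 13 (16.7% against 3.19%), all searched on both strands. The 27025 genes are all genes with a window, without the minimum of reads that the members had. The 2 sets thus differ in more than their function. TGCGCA can overlap with the palindrome where the flanking letters allow it. Of 26 genes higher after Pam3 in both genotypes, 4 had the palindrome (Cox6a1, Atp5k, Uqcrc1 and Ndufa11), 5 the core, 10 the ETS letters and 5 the YY1 letters; of 11 genes lower in both, 0, 1, 2 and 0 did; of the remaining 41, 2, 11, 10 and 8 did. These groups are small and the match of letters is a description, not a site. The windows of Cox6a1 (chr5:115348909-115349208, minus strand), with NRF1 and ETS letters, and of Uqcrc1 (chr9:108936398-108936697, plus strand), with the palindrome inside a longer run that also holds the core on both sides, are shown for the higher genes, and that of Ndufb11 (chrX:20617570-20617869, minus strand), without a match, for the lower ones. These windows are examples and do not stand for their groups. The window of Cox5a, higher in both genotypes, had 0 matches. At least 1 of the core, ETS and YY1 letters was in 15 of the 26 higher genes, 3 of the 11 lower and 23 of the remaining 41. Capitals mark the matches.
Cox6a1: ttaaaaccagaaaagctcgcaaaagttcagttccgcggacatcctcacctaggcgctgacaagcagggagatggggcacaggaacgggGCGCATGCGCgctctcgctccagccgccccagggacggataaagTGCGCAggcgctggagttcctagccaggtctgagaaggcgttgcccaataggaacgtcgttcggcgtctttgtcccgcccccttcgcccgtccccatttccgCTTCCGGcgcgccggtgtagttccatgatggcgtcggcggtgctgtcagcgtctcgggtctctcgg
Uqcrc1: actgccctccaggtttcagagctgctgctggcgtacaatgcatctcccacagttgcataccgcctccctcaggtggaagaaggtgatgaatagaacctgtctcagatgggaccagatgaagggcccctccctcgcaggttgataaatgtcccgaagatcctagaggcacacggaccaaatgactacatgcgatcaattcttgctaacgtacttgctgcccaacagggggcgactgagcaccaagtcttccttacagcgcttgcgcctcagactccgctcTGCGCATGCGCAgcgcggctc
Ndufb11: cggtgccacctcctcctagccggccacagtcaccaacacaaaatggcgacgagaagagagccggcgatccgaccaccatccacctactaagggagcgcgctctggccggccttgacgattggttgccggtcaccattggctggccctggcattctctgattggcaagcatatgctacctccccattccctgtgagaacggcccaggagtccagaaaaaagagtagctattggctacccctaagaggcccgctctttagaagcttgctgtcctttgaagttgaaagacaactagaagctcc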

How the data were processed

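PolyA RNA of 24 cultures was sequenced as single-end 50 bp reads with a TruSeq RNA v2 kit, per the labels' protocols. GSNAP and GRCm38 are named in the submitters' processing notes, without versions or settings. The deposited counts are whole numbers, per the file headers of uniquely aligning reads by gene model, and were used for all tests. The RPKM values that the authors deposited include a size factor, as the headers state, and were used only to compare levels between genes. Symbols came from GENCODE M21 for 52489 of 52636 gene models, and rows without a symbol held 0.00387% of the reads.

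Counts of all 24 libraries were fitted with edgeR 4.0.16 in R 4.3.3 (TMM, filterByExpr, a mean per group, quasi-likelihood F-test). The filter kept 14435 genes, including all 104 members. A gene passed at a Benjamini-Hochberg adjusted p under 0.05 over all genes tested. The biological coefficient of variation was 8.21%, and totals of 31302011 to 40663152 reads per library left counting error small except for members with few reads. Each standard error is the size of the log2 fold change divided by the root of F. The code was tested on simulated counts. Alternatives were library size or RLE scaling, TMM without mitochondrial genes, DESeq2 1.42.0, no filter, fits of 2 groups and omission of each library; 2 combinations without WT_Pam3 replicate 5 were chosen after seeing the data. Python 3.11.15, pandas 2.3.3, numpy 2.4.6 and matplotlib 3.10.9 served for tables, sequences and figures.

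The members and gene lists were chosen with earlier results of these data known. Named genes were the mitochondrial members, complex II, the isoform genes, the 8 largest rises and falls per Pam3 response among members that passed, members that passed between genotypes, up to 4 genes per related list, AA467197, and the lowest and highest member per complex. Ndufb6, Ndufa11, Ndufc1, Ndufa1, Ndufs8, Ndufs4, Ndufv1, Ndufv2, Ndufs1, Uqcrfs1, Uqcrc1, Uqcrh, Cox14, Atp5a1, Atp5c1, Atp5e and Atp5k were named beside them after their values were seen. Replicate numbers follow the order of deposit and pair nothing. Promoters came from RefSeq (GRCm38.p6) for 78 of the 94 nuclear members, and shared stretches from GENCODE M21 transcripts.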

Additional observations from a re-analysis of the deposited data

Results flagged for a closer look

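A library was marked where its gap to the nearest of the other 5 in its group exceeded Dixon's 95% critical value as a part of the group's range, which chance gives in about 1 of 20 groups. Most marks fell on WT_Pam3 replicate 5. Its share of reads was the lowest of its group for the mitochondrial members, 0.336%, and the highest for the nuclear members, 0.622%, for the nuclear subunits of complex I, 0.144%, complex II, 0.0466%, complex III, 0.0564%, complex IV, 0.124%, and complex V, 0.229%, and for the assembly factors, 0.0221%. Its ratio of mitochondrial to nuclear reads, 0.540, and its ratio of complex V to complex I reads, 1.59, were the lowest.

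In CPM, the same library had the lowest values of its group for mt-Co1 (752), mt-Nd1 (799), mt-Nd2 (293) and mt-Nd5 (358). It had the highest values for complex I genes Ndufa4 (74.9), Ndufa6 (43.3), Ndufb10 (54.4), Ndufb5 (42.8), Ndufs3 (14.4) and Ndufv3 (52.6), and for complex II genes Sdhb (113), Sdhc (129) and Sdhd (118). Among complex IV genes it was highest for Cox17 (29.4), Cox18 (11.4), Cox4i1 (535), Cox5a (171), Cox6a1 (148), Cox6b1 (199.9), Cox6c (90.2), Cox7a1 (2.79), Cox7a2 (96.1), Cox7a2l (77.2), Cox7b (24.3) and Cox8a (139). Among complex V genes it was highest for Atp5b (908.0), Atp5g3 (223) and Atp5o (119), and outside the set for AA467197 (45.3).

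The marks elsewhere were scattered. KO_Pam3 replicate 6 was highest for the share of complex III, 0.0405%, and in CPM for Cox4i1 (346) and Cox7a1 (1.58). KO_Pam3 replicate 4 was lowest for mt-Co1 (849), and KO_Pam3 replicate 2 highest for Cox6a2 (2.02). In media, WT_media replicate 2 was highest for Cox17 (11.1), WT_media replicate 6 highest for Cox6a2 (1.97), and KO_media replicate 6 lowest for Cox8a (58.3).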

How the results depend on the processing

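No paired analysis was possible because the labels carry no replicate numbers. Counts below are of members, in the order higher and lower, with the number of mitochondrial members passing where given. KO against WT in media (0 and 2 of which 2 mitochondrial) gave 1 lower with library size, 1 lower without a filter, 1 higher and 5 lower with only these groups, 3 and 5 with library size without WT_Pam3 replicate 5, 1 and 5 with RLE without it, and over the omissions of 1 library 0 to 1 higher and 1 to 5 lower. The number of mitochondrial members passing equalled the number lower in each of these. After Pam3 (0 and 2, mitochondrial 2) it gave 0 lower with library size, without a filter and with only these groups, 1 and 5 with library size without replicate 5, 5 lower with RLE without it, and 0 to 5 lower over the omissions, with 0 higher. DESeq2 gave 3 lower, of which 2 mitochondrial, and elsewhere the mitochondrial number equalled the number lower. Pam3 against media in WT (52 and 11, mitochondrial 0) gave 11 and 57 with 9 mitochondrial with library size, 11 and 83 with 9 with library size without replicate 5, 17 lower with 2 mitochondrial without a filter, 19 lower with 3 mitochondrial with RLE without replicate 5, and 47 to 54 higher, 8 to 22 lower and 0 to 2 mitochondrial over the omissions. In KO (34 and 21, mitochondrial 1) the values were 10 and 74 with 9 with library size, 11 and 83 with 9 with library size without replicate 5, 2 mitochondrial with RLE, DESeq2 or only these groups, 0 without a filter, 3 with RLE without replicate 5, and 28 to 45 higher, 18 to 25 lower and 0 to 2 mitochondrial over the omissions. The interaction (0 and 0) gave 1 lower with RLE without replicate 5, 0 to 1 lower over the omissions and otherwise 0. TMM without the mitochondrial genes changed the call of no named member. RLE scaling gave 54 and 9 in WT and 38 and 18 in KO.

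Signs were compared for part of the named genes, not for all 104 members. Among these genes, library size alone reversed 27 changes after Pam3. In KO these were Atp5g1 −0.43, Cox4i1 −0.39, Cox6a1 −0.063, Cox6b1 −0.0095, Cox7a1 −0.39, Cox7b −0.17, Cox8a −0.21, Ndufa4 −0.31, Sdhc −0.41, mt-Co2 −0.42, mt-Cytb −0.41, mt-Nd1 −0.32, mt-Nd2 −0.48 and mt-Nd5 −0.32. In WT they were Cox4i1 −0.20, Cox6a2 −0.35, Cox7a1 −0.079, Cox7b −0.10, Cox8a −0.066, Ndufa4 −0.14, Sdha −0.46, Sdhb −0.42, Sdhc −0.41, mt-Atp6 −0.43, mt-Cytb −0.48, mt-Nd1 −0.47 and mt-Nd5 −0.52. That scaling shifts all genes alike by construction. Depth limits mt-Co2, mt-Co3 and mt-Atp6, with means of 45.3, 38.8 and 36.7 reads per library; the cause of the changes with other settings was not tested.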
